A study of Homo sapiens with 8 samples.

Results

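This account covers 10 genes for immune checkpoint and leukemia surface molecules in MOLM13, a long-established human line of acute myeloid leukemia with monocytic character. The genes, chosen by symbol, are CD274, PDCD1LG2, CD86, LGALS9, HAVCR2, CD47, SIRPA, CLEC12A, CD38 and CD44, out of 35369 genes with a symbol and values. The choice was made with earlier results of these data known. Messenger RNA was sequenced in 4 groups of 2 libraries, and all 4 groups are MOLM13 cultures described by the same virus infection and optional puromycin selection. The control group has the genotype label WT, the knockdown group is labelled as an IGF2BP2 knockdown, and the other groups are labelled as a rescue with IGF2BP2 and as a rescue with a mutant of IGF2BP2. IGF2BP2 encodes a protein that binds messenger RNA. The labels used here give neither the hairpin, the vector and its promoter, nor the mutation. They also do not say whether control or knockdown cells received an empty vector, whether a rescue was made in the knockdown cells, whether a group was 1 clone, or whether the 2 libraries of a group came from separate cultures. All p-values below thus rest on the spread between such libraries, and that spread may be technical.

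Leukemic blasts meet T cells and macrophages through molecules on their surface. Ligands of the B7 family either co-stimulate T cells, as CD86 does through CD28, or restrain them, as PD-L1 (CD274) and PD-L2 (PDCD1LG2) do through PD-1. Galectin-9 (LGALS9) is a secreted lectin that binds TIM-3 (HAVCR2), an inhibitory receptor of T cells that is also found on leukemic stem cells. CD47 binds SIRPα (SIRPA) on macrophages and signals that a cell should not be engulfed. CLEC12A is an inhibitory lectin receptor of myeloid cells, CD38 an enzyme that consumes NAD at the cell surface, and CD44 the receptor for hyaluronan.

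CD274 is a textbook target of interferon signalling, and its upstream sequence is shown because the groups differed widely in interferon-stimulated transcripts. The sequence below comes from RefSeq (GRCh38.p14, chr9:5450292-5450441, plus strand) and runs 5′ to 3′ from 250 to 101 bases before the RefSeq start. Capitals mark matches to the core of the interferon-stimulated response element (ISRE: GAAA, any 2 bases, GAAA) and to the core of the gamma-activated site (GAS: TTC, any 3 bases, GAA).
CD274: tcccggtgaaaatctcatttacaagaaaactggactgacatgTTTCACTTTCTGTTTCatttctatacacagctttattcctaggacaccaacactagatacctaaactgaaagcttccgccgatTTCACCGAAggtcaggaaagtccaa
Both strands were searched over the 250 bases before each RefSeq start. These starts can differ from the GENCODE gene starts given below. The CD274 window ends at 5450541, and its GENCODE gene starts at 5450503. The window of LGALS9 ends at 27631187 with a gene start at 27629798, and that of CLEC12A at 9971408 with a gene start at 9951316. The first run of capitals holds 2 overlapping matches to the ISRE core, both on the minus strand, whose first bases on the printed strand lie 208 and 202 bases before the start. The second run is a single match to the GAS core, 125 bases before the start. The core pattern is its own reverse complement, so the match holds on both strands. The ISRE core occurred in 1061 of 35116 windows (3.02%), in 2.61% of the windows of the genes tested, and in 21 of 32 windows of a list of interferon-stimulated genes. The GAS core occurred in 6.57% of all windows, in 5.63% of those of tested genes and in 6 of the 32. Of the 7 genes of the set with a RefSeq window (CD274, CD86, LGALS9, CD47, CLEC12A, CD38 and CD44), CD274 was the one with a match to either motif in these windows. Bases before the GENCODE starts were not searched separately. A match is a description of these letters and shows no binding, and no match says nothing about the factor.

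The deposited values are log2 levels that the authors normalized across the 8 libraries, so neither read depth nor counting error can be given. They are not per length, and levels are therefore compared here only within a gene. Genes were tested where 2 or more libraries reached 1 ppm of the library's linear total, which kept 13030 genes and 8 of the 10 of the set. Across genes, replicates differed with an SD on the log2 scale of 0.148 in knockdown, 0.212 in control, 0.232 in rescue and 0.303 in mutant rescue. IGF2BP2 itself stood at 10.94 and 10.89 in control, 10.24 and 10.25 in knockdown, 11.36 and 11.13 in rescue, and 11.03 and 10.68 in mutant rescue. Both knockdown libraries were thus the lowest. Markers of the labelled cell type were present: all 12 genes of a myeloid leukemia list were tested, PTPRC, CD33 and FLT3 among them. CD3E (T cells), MS4A1 (B cells), HBA1 (red cells), PPBP (platelets) and KDR (endothelium) were listed at 0 in every library. None of 7 erythroid and megakaryocyte or 8 stromal and endothelial markers reached the 1 ppm filter, against 4 of 10 T and NK cell markers and 2 of 6 B and plasma cell markers.

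**Figure D1:**
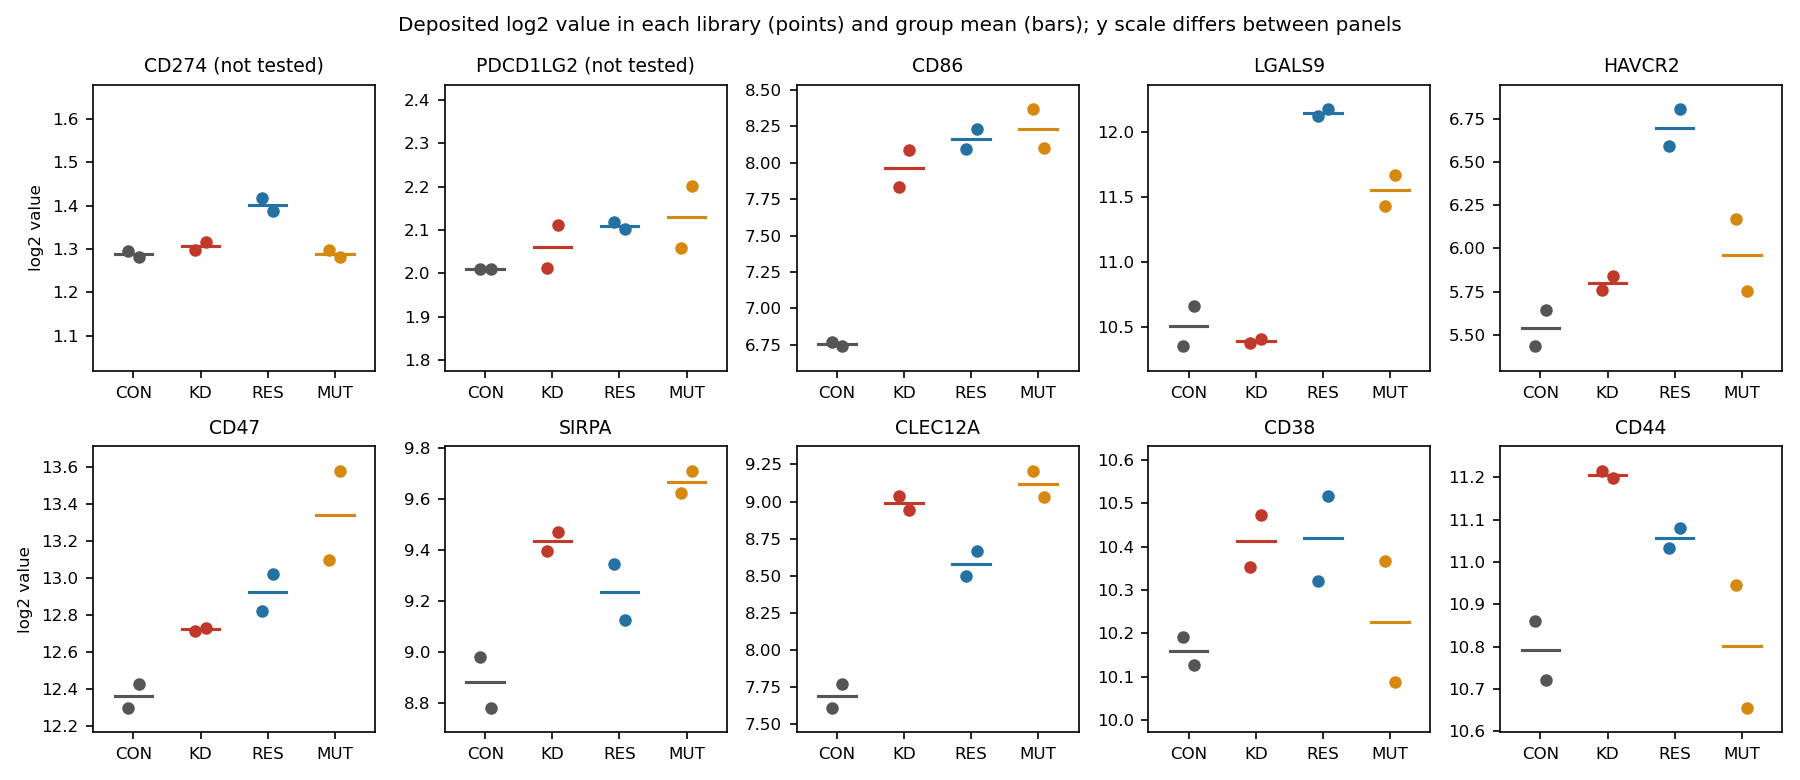
Deposited log2 value of each of the 10 genes (y axis, scale differs between panels) in the 4 groups (x axis: CON control, KD knockdown, RES rescue, MUT mutant rescue). Points are libraries and bars are group means of 2 libraries. CD86 and CLEC12A were lowest in both control libraries, while LGALS9 and HAVCR2 were highest in both rescue libraries.

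Among the genes tested, the surface molecules that changed were higher than in control, whichever group was set against it. Knockdown exceeded control in CLEC12A, CD86, SIRPA and CD44, which is 4 of 8 called higher by limma at an adjusted p under 0.05, beside 5.35% of all tested genes called higher. Rescue exceeded control in CD86, LGALS9, HAVCR2 and CLEC12A, 4 of 8 beside 4.91%. Mutant rescue exceeded control in CD86, LGALS9, CD47, SIRPA and CLEC12A, 5 of 8 beside 13.9%. These comparisons share the control libraries, so their counts are not independent. The set and the related lists were also chosen with earlier results of these data known. Their counts and medians, here and below, are therefore descriptions and cannot show an excess over all tested genes.

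The comparisons among knockdown, rescue and mutant rescue gave the following calls. Rescue exceeded knockdown in LGALS9 and HAVCR2, 2 of 8 beside 3.22% of tested genes called higher. Mutant rescue exceeded knockdown in LGALS9 and CD47, 2 of 8 beside 5.58%. LGALS9 and HAVCR2 were higher in rescue than in mutant rescue, 2 of 8 beside 5.9%, and CLEC12A was lower, 1 of 8 beside 4.61% called lower. In the 5 other comparisons limma called 0 of the 8 lower. The share of tested genes called lower was 7.44% in knockdown and 2.27% in rescue against control, 11.0% in mutant rescue against control, and 1.02% in rescue and 5.73% in mutant rescue against knockdown. At an unadjusted p under 0.05, 0 of the 8 were lower in any group than in control, beside 16.0%, 10.3% and 18.3% of tested genes for knockdown, rescue and mutant rescue. At that p 1 was lower in rescue than in knockdown (CLEC12A, beside 8.16% of tested genes) and 1 in mutant rescue than in knockdown (CD44, beside 14.1%). Of the 8 in those 5 comparisons, the authors' deposited table called CLEC12A lower, in rescue against knockdown, and no other.

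The median log2 change of the 8 genes was 0.39 for knockdown minus control, where the median of all tested genes was 0.01. It was 0.73 for rescue minus control and 0.88 for mutant rescue minus control, beside medians of -0.01 and 0.01. It was 0.10 for rescue over knockdown, beside 0.00, and 0.20 for mutant rescue over knockdown, beside 0.05. For rescue minus mutant rescue it was 0.06, beside -0.02. Values without overlap between 2 groups of 2 libraries were frequent in all genes: the knockdown libraries lay above both control libraries for 7 of the 8 genes, beside 32.7% of tested genes, the rescue libraries for 8 of 8, beside 26.1%, and the mutant rescue libraries for 6 of 8, beside 31.5%.

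**Figure D2:**
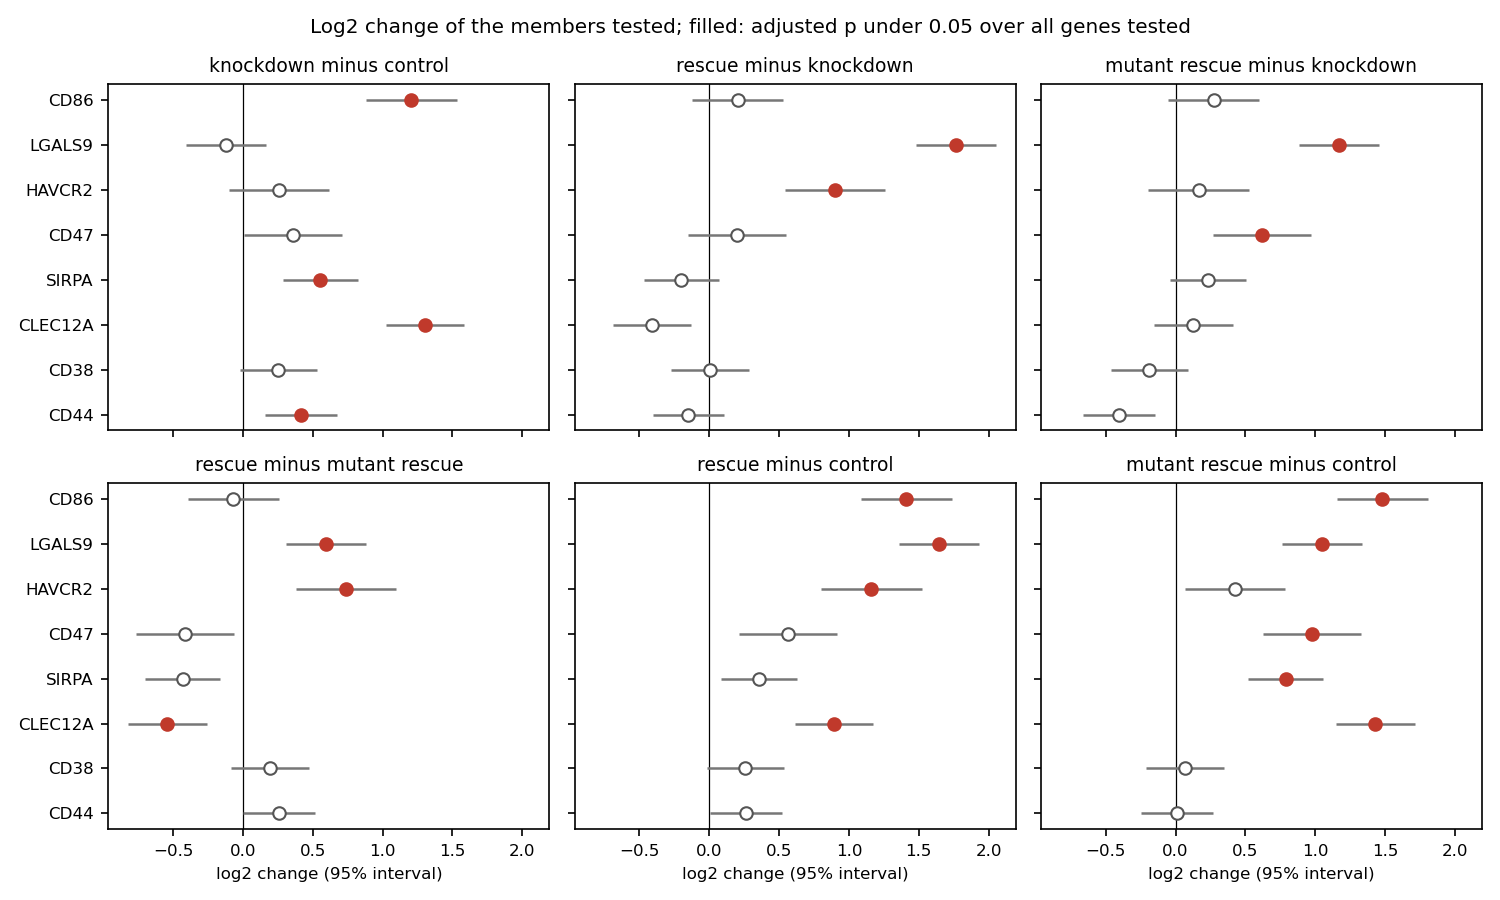
Log2 change of the 8 tested genes in each of the 6 comparisons (x axis, with the 95% interval from limma), filled where the adjusted p over 13030 genes was under 0.05. Of the 20 filled points 19 lie to the right of 0, and the exception is CLEC12A in rescue minus mutant rescue.

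The ligands of PD-1 were low in every library, under 1 ppm of its total. CD274 (chr9:5450503-5470566, plus strand, GRCh38, protein coding) stood at 1.29 and 1.28 in control, 1.30 and 1.32 in knockdown, 1.42 and 1.39 in rescue, and 1.30 and 1.28 in mutant rescue. Both rescue libraries were the highest, by no more than 0.11 between group means, on a log2 scale on which the authors' values of low genes are drawn together. As shares of each library's total the order of CD274 differed. Both knockdown libraries were then the highest, at 0.182 and 0.184 ppm, beside 0.181 and 0.179 ppm in rescue. Control stood at 0.178 and 0.167 ppm and mutant rescue at 0.159 and 0.151 ppm. PDCD1LG2 (chr9:5510570-5571254, plus strand), which starts 40.0 kb after the end of CD274, stood at 2.01 and 2.01 in control, 2.01 and 2.11 in knockdown, 2.12 and 2.10 in rescue, and 2.06 and 2.20 in mutant rescue. The highest share of a library's total was 0.184 ppm for CD274 and 0.319 ppm for PDCD1LG2, so neither entered the test.

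On the deposited log2 scale and without the filter on low values, CD274 was 0.11 higher in rescue than in control (adjusted p = 0.0297 by limma over all genes). It was also 0.11 higher in rescue than in mutant rescue (adjusted p = 0.0280). Its 0.09 over knockdown did not pass (adjusted p = 0.0801), and PDCD1LG2 passed in none of the 6 comparisons. In the authors' deposited table the log2 change of CD274 for rescue minus control was 4.07 with a p-value of 0.0610 and an adjusted p of 1. For PDCD1LG2 that table gave 5.19 for rescue minus control (p-value 0.0324) and 5.53 for mutant rescue minus control (p-value 0.0222), both with an adjusted p of 1. With no counts at hand, the number of reads behind these large ratios is unknown.

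CD86, the ligand of CD28 and CTLA-4 on antigen-presenting cells, was lowest in control and higher in each of the other groups. CD86 (chr3:122055366-122121139, plus strand, protein coding) stood at 6.77 and 6.74 in control, 7.83 and 8.09 in knockdown, 8.10 and 8.23 in rescue, and 8.37 and 8.10 in mutant rescue. No library of the other groups overlapped control. It was 2.31-fold higher in knockdown than in control, a log2 change of 1.21 (SE 0.14, adjusted p = 0.00203), and ranked 44 among the increases of 13030 genes. The change against control was 1.41 in rescue (SE 0.14, adjusted p = 0.000511) and 1.48 in mutant rescue (SE 0.14, adjusted p = 0.000340). In the authors' deposited table the log2 changes against control were larger, at 2.07 in knockdown, 2.40 in rescue and 2.53 in mutant rescue.

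The group means of CD86 were 6.76 ± 0.02 (SD, n = 2) in control, 7.96 ± 0.18 in knockdown, 8.17 ± 0.09 in rescue and 8.23 ± 0.19 in mutant rescue. The 3 groups above control did not separate: rescue minus knockdown was 0.20 (95% interval -0.12 to 0.53), mutant rescue minus knockdown 0.27 (-0.05 to 0.60) and rescue minus mutant rescue -0.07 (-0.40 to 0.26). In neither rescue group did CD86 stand at the control level. All 3 changes against control passed in each of the 14 alternative fits.

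Galectin-9 was, of the 8 tested genes, the one with the largest difference between the rescue groups and knockdown. LGALS9 (chr17:27629798-27649560, plus strand, protein coding) stood at 10.35 and 10.66 in control, 10.37 and 10.40 in knockdown, 12.13 and 12.18 in rescue, and 11.43 and 11.68 in mutant rescue. Control and knockdown overlapped, mutant rescue lay above both, and rescue lay above all. The log2 change was 1.76 in rescue over knockdown (SE 0.13, 3.40-fold, adjusted p = 6.02e-05), where it ranked 71 among the increases, and 1.17 in mutant rescue over knockdown (SE 0.13, 2.25-fold, adjusted p = 0.00222). Over control it was 1.65 in rescue (adjusted p = 8.62e-05) and 1.05 in mutant rescue (adjusted p = 0.00102).

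Rescue exceeded mutant rescue in LGALS9 by 0.60 (SE 0.13, 1.51-fold, adjusted p = 0.0234). That call did not survive leaving out either knockdown library (adjusted p = 0.0577 and 0.0579 for replicates 1 and 2) or either rescue library (0.0740 and 0.129). Knockdown did not differ detectably from control, with a log2 change of -0.12 (95% interval -0.41 to 0.17). The near copies LGALS9B and LGALS9C were listed at or under 0.0446 ppm in every library. How reads shared between the copies were assigned is unknown, so the value of LGALS9 is uncertain to that extent.

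TIM-3, the receptor that galectin-9 binds, was also highest in rescue. HAVCR2 (chr5:157085832-157142869, minus strand, protein coding, overlapping MED7 on the same strand) stood at 5.43 and 5.65 in control, 5.76 and 5.84 in knockdown, 6.59 and 6.81 in rescue, and 6.17 and 5.75 in mutant rescue. Both rescue libraries were above all others. Mutant rescue straddled knockdown. The log2 change in rescue was 1.16 over control (SE 0.16, 2.24-fold, adjusted p = 0.00302), 0.90 over knockdown (SE 0.16, 1.87-fold, adjusted p = 0.0160) and 0.74 over mutant rescue (SE 0.16, 1.67-fold, adjusted p = 0.0246). In the authors' deposited table these log2 changes were larger, at 2.77, 1.95 and 1.45 in the same order.

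The rise of HAVCR2 in rescue over control passed in all 14 alternative fits, but its other calls were lost in some of them. With 1 library left out, the rise in rescue ranged from 0.80 to 1.01 over knockdown and from 0.53 to 0.95 over mutant rescue. Over knockdown it no longer passed when either knockdown library (adjusted p = 0.141 and 0.110 for replicates 1 and 2) or rescue replicate 2 (0.105) was left out. Over mutant rescue it no longer passed when either knockdown library (adjusted p = 0.0527 and 0.0526), rescue replicate 2 (0.139) or mutant rescue replicate 2 (0.0790) was left out. Mutant rescue minus control was 0.42 (95% interval 0.06 to 0.78, adjusted p = 0.0811) and passed without mutant rescue replicate 2 (adjusted p = 0.0230). Knockdown minus control was 0.26 (adjusted p = 0.317).

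Interferon-stimulated transcripts, like LGALS9 and HAVCR2, stood highest in rescue, and like LGALS9 they stood next highest in mutant rescue. The mean log2 value of 30 tested interferon-stimulated genes was 7.18 and 7.23 in control, 7.44 and 7.51 in knockdown, 11.76 and 11.82 in rescue, and 9.91 and 9.86 in mutant rescue. Their summed level was 612 to 624 ppm in control, 745 to 783 ppm in knockdown, 12538 to 13862 ppm in rescue and 3284 to 3468 ppm in mutant rescue. All 30 were called higher in rescue than in knockdown, and 29 of 30 in mutant rescue than in knockdown. Of the other tested genes, CD86, CD47, SIRPA and CLEC12A had their highest group mean in mutant rescue and CD44 in knockdown. Most of these rankings were not resolved by limma. Rescue minus mutant rescue was -0.07 in CD86 (adjusted p = 0.767). Mutant rescue minus knockdown was 0.13 in CLEC12A (adjusted p = 0.492), and rescue minus knockdown -0.15 in CD44 (adjusted p = 0.519). Of CD86, CD47, SIRPA and CLEC12A, mutant rescue was called above rescue in CLEC12A alone and above knockdown in CD47 alone. The group means of CD38 were nearly level in rescue and knockdown, at 10.42 and 10.41. The part of the interferon response in the levels of any of these genes, LGALS9 and HAVCR2 included, was not tested.

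**Figure D3:**
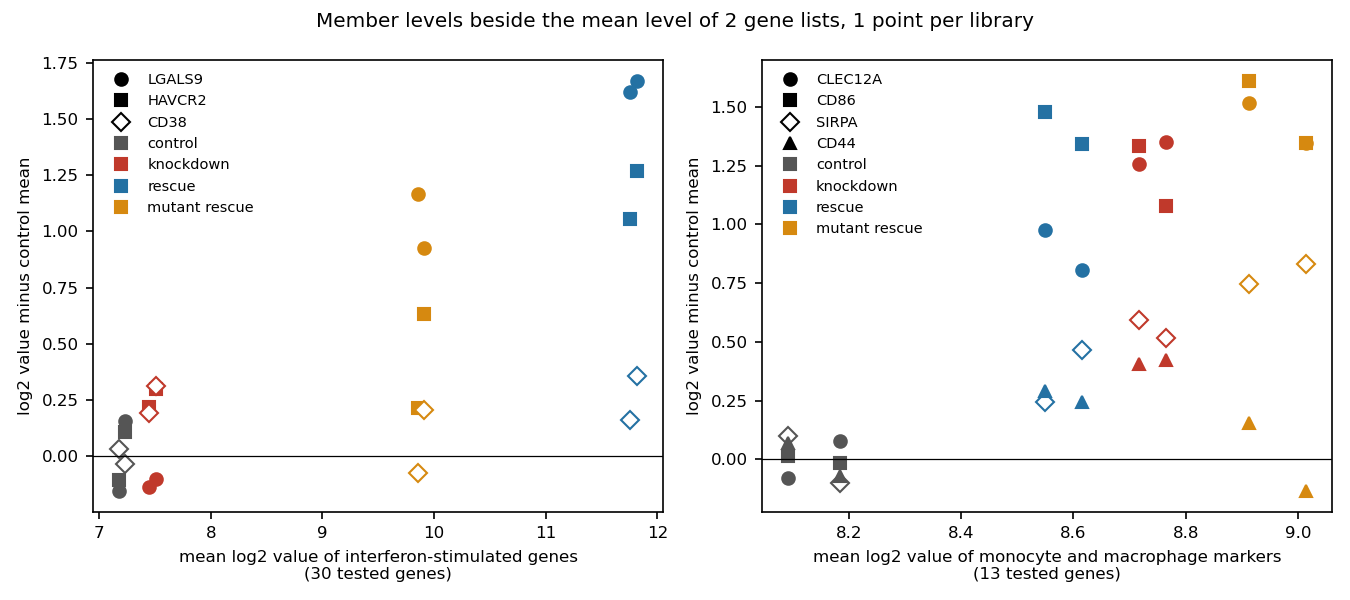
Each point is 1 library. Left, level of LGALS9, HAVCR2 and CD38 (y axis, log2 value minus the control mean) against the mean log2 value of 30 interferon-stimulated genes (x axis); right, CLEC12A, CD86, SIRPA and CD44 against the mean log2 value of 13 monocyte and macrophage markers. In the left panel the rescue libraries (11.76 and 11.82 on the x axis) carry the highest LGALS9 and HAVCR2 values, and in the right panel both control libraries (8.09 and 8.18) carry the lowest CLEC12A and CD86 values.

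Several known regulators of PD-L1 rose, while CD274 stayed under 1 ppm in every library. Of 19 tested genes for the induction and stability of PD-L1, limma called 5 higher in rescue and 4 higher in mutant rescue than in knockdown. It called 7 higher in each rescue group than in control. The shares of all tested genes called higher, for rescue and mutant rescue, were 3.22% and 5.58% over knockdown, and 4.91% and 13.9% over control. IRF9, the DNA-binding part of the complex that recognises the interferon-stimulated response element, rose by 2.08 in rescue over knockdown (adjusted p = 5.13e-06) and by 1.79 in mutant rescue over knockdown (adjusted p = 3.92e-05). IRF1, a transcription factor known to act at the CD274 promoter, rose by 1.43 in rescue over knockdown (adjusted p = 5.21e-05) and was 1.75 higher in rescue than in mutant rescue (adjusted p = 4.78e-05). Each of these calls passed in all 8 fits that left out 1 library.

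CD47, which tells macrophages not to engulf a cell, was highest in mutant rescue. CD47 (chr3:108043094-108091862, minus strand, protein coding) stood at 12.30 and 12.42 in control, 12.71 and 12.73 in knockdown, 12.82 and 13.02 in rescue, and 13.10 and 13.58 in mutant rescue. The groups followed each other without overlap in that order. Mutant rescue replicate 2 was the highest library, well above its partner. The change in mutant rescue over control was 0.98 (SE 0.15, 1.97-fold, adjusted p = 0.00326) and passed in all 14 alternative fits.

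The other steps of CD47 were close to the threshold. Mutant rescue over knockdown was 0.62 (SE 0.15, adjusted p = 0.0413). It held in 1 of the 8 fits that left out 1 library, the one without mutant rescue replicate 1. The adjusted p was 0.0586 and 0.0587 when control replicates 1 and 2 were left out, 0.190 and 0.225 for the knockdown libraries, 0.0557 and 0.0554 for the rescue libraries, and 0.107 for mutant rescue replicate 2. Knockdown minus control was 0.36 (95% interval 0.01 to 0.71, adjusted p = 0.162) and passed without mutant rescue replicate 1 or 2 (adjusted p = 0.0385 and 0.0380). Rescue minus control was 0.56 (0.21 to 0.91, adjusted p = 0.0672) and passed without either of those libraries (adjusted p = 0.0107 and 0.0105). Rescue minus mutant rescue was -0.42 (-0.77 to -0.07, adjusted p = 0.111) and passed without mutant rescue replicate 1 (adjusted p = 0.00919). In the authors' deposited table CD47 was called in both comparisons with control that missed here, at 0.39 (adjusted p = 0.0169) for knockdown and 0.67 (adjusted p = 0.00185) for rescue.

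SIRPα, the receptor of CD47, is itself a surface protein of myeloid cells. SIRPA (chr20:1894167-1940592, plus strand, protein coding) stood at 8.98 and 8.78 in control, 9.40 and 9.47 in knockdown, 9.34 and 9.13 in rescue, and 9.63 and 9.71 in mutant rescue. Control was lowest and mutant rescue highest, with no overlap between any of the groups. The change over control was 0.55 in knockdown (SE 0.12, 1.47-fold, adjusted p = 0.0209) and 0.79 in mutant rescue (SE 0.12, 1.73-fold, adjusted p = 0.00270). The first call was lost when control replicate 2 (adjusted p = 0.118) or either knockdown library (0.128 and 0.173) was left out, and the second passed in all 14 alternative fits.

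Rescue minus control in SIRPA was 0.36 (95% interval 0.08 to 0.63, adjusted p = 0.120). Rescue minus mutant rescue was -0.43 (-0.70 to -0.16, adjusted p = 0.0524) and passed without mutant rescue replicate 1 (adjusted p = 0.0473). The closely related SIRPB1 stood at 10.82 and 11.05 in control, 11.45 and 11.39 in knockdown, 11.10 and 11.36 in rescue, and 11.58 and 11.49 in mutant rescue. The 2 genes share long stretches of sequence, so the split of reads between them is uncertain.

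Of 11 other tested genes of these phagocytosis signals, limma called 2 higher in knockdown than in control, beside 5.35% of all tested genes. They were SIRPB1 at 0.49 (adjusted p = 0.0311) and SIRPD at 0.51 (adjusted p = 0.0328). Both calls were lost when either control library or either knockdown library was left out (adjusted p = 0.0582 to 0.206 for SIRPB1 and 0.0905 to 0.242 for SIRPD). SLAMF7, a receptor that macrophages use to engulf blood cancer cells, was 0.69 higher in rescue than in knockdown (adjusted p = 0.0103) and 0.81 higher in rescue than in mutant rescue (adjusted p = 0.00460). The first of these was lost when either knockdown or either rescue library was left out (adjusted p = 0.0636 to 0.149). PTPN6, the phosphatase SHP-1 that SIRPα recruits, was 0.50 higher in mutant rescue than in control (adjusted p = 0.00570).

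CLEC12A, a myeloid receptor found on most acute myeloid leukemia blasts, had the largest increase of the 8 tested genes in knockdown by the library values. In the authors' deposited table CD86 rose more in knockdown over control, by 2.07 against 1.84 for CLEC12A. CLEC12A (chr12:9951316-9995694, plus strand, protein coding) stood at 7.61 and 7.77 in control, 9.04 and 8.95 in knockdown, 8.50 and 8.66 in rescue, and 9.21 and 9.03 in mutant rescue. Control was lowest and rescue intermediate, and knockdown and mutant rescue overlapped above both. The change in knockdown over control was 1.30 (SE 0.12, 2.47-fold, adjusted p = 0.00107), which ranked 31 among the increases of 13030 genes. It was 1.43 in mutant rescue (SE 0.12, 2.70-fold, adjusted p = 0.000200) and 0.89 in rescue (SE 0.12, 1.85-fold, adjusted p = 0.00324) over control, and these 3 calls passed in all 14 alternative fits.

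The group means of CLEC12A were 7.69 ± 0.11 (SD, n = 2) in control, 8.58 ± 0.12 in rescue, 8.99 ± 0.07 in knockdown and 9.12 ± 0.12 in mutant rescue. It was lower in rescue than in mutant rescue, by a log2 change of -0.54 (SE 0.12, adjusted p = 0.0301). That call did not pass when either knockdown library (adjusted p = 0.0707 and 0.0704 for replicates 1 and 2), either rescue library (0.121 and 0.0907) or mutant rescue replicate 1 (0.05004) was left out. Rescue minus knockdown was -0.41 (95% interval -0.69 to -0.13, adjusted p = 0.105). In the authors' deposited table the same change was -0.56 and passed (adjusted p = 0.0465), while rescue minus mutant rescue was -0.74 and did not (adjusted p = 0.0518). CLEC1B and an antisense transcript overlap CLEC12A on the opposite strand, and no source used here says whether reads were assigned by strand. CLEC1B was below the 1 ppm filter.

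CD38, the NAD-consuming enzyme, was the gene of the set with no call in any comparison. CD38 (chr4:15778275-15853230, plus strand, protein coding) stood at 10.19 and 10.13 in control, 10.35 and 10.47 in knockdown, 10.32 and 10.52 in rescue, and 10.37 and 10.09 in mutant rescue. Control lay below knockdown and rescue, and mutant rescue overlapped all 3. Knockdown minus control was 0.25 (95% interval -0.02 to 0.53, adjusted p = 0.208) and rescue minus control 0.26 (-0.02 to 0.54, adjusted p = 0.258). No comparison of CD38 passed in any of the alternative fits.

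Among 10 other tested genes of NAD and adenosine metabolism, NAMPT, which makes NAD from nicotinamide, rose by 1.07 in rescue over knockdown (adjusted p = 0.000739) and was 1.19 higher in rescue than in mutant rescue (adjusted p = 0.000659). It was the single gene of that list called in rescue minus knockdown. ADORA2B, an adenosine receptor, was 0.42 higher in knockdown than in control (adjusted p = 0.0229) and 0.52 higher in mutant rescue than in control (adjusted p = 0.00618). BST1, the relative of CD38 with the same kind of activity, was 0.49 higher in mutant rescue than in control (adjusted p = 0.0114). The knockdown call of ADORA2B was lost when either control or either knockdown library was left out (adjusted p = 0.0601 to 0.195), and the call of BST1 without control replicate 1 (adjusted p = 0.0527).

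CD44, the hyaluronan receptor through which leukemic cells hold on to the marrow niche, was highest in knockdown. CD44 (chr11:35138870-35232402, plus strand, protein coding) stood at 10.86 and 10.72 in control, 11.21 and 11.20 in knockdown, 11.03 and 11.08 in rescue, and 10.94 and 10.66 in mutant rescue. Knockdown lay above rescue and rescue above control, while mutant rescue overlapped control. Knockdown minus control was 0.41 (SE 0.11, 1.33-fold, adjusted p = 0.0462), mutant rescue minus knockdown -0.41 (95% interval -0.66 to -0.15, adjusted p = 0.0524) and mutant rescue minus control 0.01 (-0.25 to 0.27).

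The call of CD44 in knockdown held in 2 of the 8 fits that left out 1 library. It was lost when either control library (adjusted p = 0.0773 and 0.205 for replicates 1 and 2), either knockdown library (0.238 and 0.233) or either rescue library (0.0718 and 0.0719) was left out. Without mutant rescue replicate 1, CD44 was called lower in mutant rescue than in knockdown (adjusted p = 0.0144) and higher in rescue than in mutant rescue (adjusted p = 0.0323). An antisense gene overlaps CD44 on the opposite strand. Isoforms of CD44 cannot be told apart in gene-level values.

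Among 11 tested partners of CD44, EZR, which ties CD44 to the cytoskeleton, was -0.40 in knockdown minus control (adjusted p = 0.0313) and rose by 0.62 in rescue over knockdown (adjusted p = 0.00889). The first call was lost when any control, knockdown or rescue library was left out (adjusted p = 0.0520 to 0.226), the second when any knockdown or rescue library was (adjusted p = 0.0510 to 0.140). SPP1, encoding the CD44 ligand osteopontin, was 1.15 higher in mutant rescue than in control (adjusted p = 0.000627), a call kept in all 8 fits.

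Some monocyte and macrophage markers also stood higher than in control in the other groups, and others did not. The mean log2 value of 13 tested markers was 8.09 and 8.18 in control, 8.76 and 8.72 in knockdown, 8.61 and 8.55 in rescue, and 8.91 and 9.01 in mutant rescue. Of the 13, limma called 6 higher in knockdown, 6 higher and 1 lower in rescue, and 8 higher in mutant rescue than in control, beside the 5.35%, 4.91% and 13.9% of all tested genes called higher. The share of all tested genes called lower in rescue was 2.27%. CSF1R, the receptor that drives macrophage development, rose by 1.27, CD68, a macrophage lysosomal protein, by 0.85, and LYZ, encoding lysozyme, by 1.92 in knockdown over control (adjusted p = 0.00194, 0.00194 and 0.00195). CD14, a receptor of monocytes, stood at -0.04 in that comparison (adjusted p = 0.801). Its highest share of a library's total was 1.44 ppm, close to the 1 ppm filter, and values of low genes are drawn together. S100A9, a calcium-binding protein of monocytes and neutrophils, was at -0.67 in rescue minus control (adjusted p = 0.0392) and is named because its call was seen to differ from the others. The call of S100A9 was lost when control replicate 2 (adjusted p = 0.193), either knockdown library (0.0868 and 0.0867) or either rescue library (0.0648 and 0.227) was left out. The part of these markers in the levels of CD86, CLEC12A, SIRPA and CD47 was not tested. In these bulk libraries, more cells of a kind and more RNA per cell cannot be told apart.

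The genes most like each surface gene over the 8 libraries were ranked by Pearson's r among 9858 genes. For CD86 they were CSF1R (r = 0.998), HIST1H2AC (0.990) and EMR1 (0.990). For CLEC12A they were COLQ (0.996), FCER2 (0.992) and CSF3R (0.992), the last of which encodes the receptor for granulocyte colony-stimulating factor. For LGALS9 they were SHISA5 (0.994), CARD16 (0.994) and PHF11 (0.993), and for HAVCR2 TRAFD1 (0.978), MLKL (0.978) and TRIM5 (0.977). CD47 was most like CPNE8 (0.992), TMEM144 (0.986) and PHACTR1 (0.985), and SIRPA most like HMOX1 (0.976), PALD1 (0.976) and C3 (0.975). CD38 was most like WDR11 (0.982), PAPD4 (0.981) and OXR1 (0.962), and CD44 most like TBC1D22B (0.976) and IKBKB (0.972). These are descriptions over 8 libraries that share group differences and normalization and whose depth is unknown, and high values are common at this number.

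Within the set, the closest pairs over the 8 libraries were CD86 with CLEC12A (r = 0.91), SIRPA with CLEC12A (0.89), CD38 with CD44 (0.87) and LGALS9 with HAVCR2 (0.85). CD47 and CD44 were farthest apart (-0.19). CD47 and its receptor SIRPA had an r of 0.79.

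Relatives of the T cell ligands from the B7 and butyrophilin family had 1 gene of 11 tested called higher in knockdown than in control. The share of all tested genes called higher there was 5.35%. The 1 gene was VSIR, listed as C10orf54, which encodes the inhibitory ligand VISTA. It was 1.24 higher in knockdown (adjusted p = 0.000480), 0.84 higher in rescue (adjusted p = 0.00101) and 1.34 higher in mutant rescue (adjusted p = 8.89e-05) than in control, in each of the 8 fits that left out 1 library. Its rescue minus mutant rescue was -0.50 (adjusted p = 0.0165), a call lost when either knockdown library (adjusted p = 0.0517 and 0.0517) or rescue replicate 2 (0.120) was left out. In rescue minus knockdown limma called 0 of the 11. At an unadjusted p under 0.05, 1 was higher and 3 were lower, the latter beside 8.16% of all tested genes. The share of all tested genes higher at that p is not given. VSIR stood at -0.40 in rescue minus knockdown (adjusted p = 0.0534). NCR3LG1, of the same list, was called lower in mutant rescue. It stood at -1.10 against knockdown (adjusted p = 0.0405 by limma) and at -1.10 against control (adjusted p = 0.0206). Both calls were lost without mutant rescue replicate 1. The call against knockdown was also lost without either knockdown library or mutant rescue replicate 2, and the call against control without control replicate 1. With 1 library left out, the change ranged from -1.27 to -0.94 against knockdown and from -1.49 to -0.71 against control.

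Of 24 other checkpoint receptors and ligands, 10 passed the filter. Against control, limma called 1 higher and 1 lower in knockdown, beside 5.35% and 7.44% of all tested genes. It called 2 higher in rescue, beside 4.91%. In mutant rescue it called 4 higher and 1 lower, beside 13.9% and 11.0%. LGALS3, encoding galectin-3, a ligand of the inhibitory receptor LAG-3, rose in every group against control: by 1.08 in knockdown (adjusted p = 0.000936), 0.68 in rescue (adjusted p = 0.00384) and 1.84 in mutant rescue (adjusted p = 1.35e-05). It was lower in rescue than in mutant rescue, by a log2 change of -1.16 (adjusted p = 0.000365). The 4 calls passed in all 8 fits that left out 1 library. LGALS3 and LGALS9, both galectins, thus had opposite differences between the rescue groups. CD70, the ligand of CD27 that leukemic stem cells carry, was 0.76 higher in mutant rescue than in control (adjusted p = 0.00236, kept in all 8 fits). In rescue minus knockdown 0 of the 10 were called. At an unadjusted p under 0.05, 1 was higher and 2 were lower, the latter beside 8.16% of all tested genes. The share of all tested genes higher at that p is not given.

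Of 17 other tested surface antigens used to recognise leukemic cells, 8 were called higher and 1 lower in mutant rescue than in control. The shares of all tested genes called higher and lower there were 13.9% and 11.0%. LILRB4, an inhibitory receptor of monocytic leukemia, was 0.82 higher in knockdown (adjusted p = 0.00366), 0.88 higher in rescue (adjusted p = 0.00177) and 1.08 higher in mutant rescue (adjusted p = 0.000457) than in control. Its knockdown call was lost when either knockdown library was left out (adjusted p = 0.0548 and 0.0541). CD300LF, a lipid-binding receptor of myeloid cells, was 0.99 higher in knockdown (adjusted p = 0.00291) and 1.16 higher in mutant rescue (adjusted p = 0.000629) than in control. IL3RA, the interleukin-3 receptor chain CD123, was 0.71 higher in mutant rescue than in control (adjusted p = 0.00317). Between the rescue groups, 5 of the 17 were lower and 1 was higher in rescue, beside 4.61% and 5.9% of all tested genes. Among the 5 were CD9 at -0.98 (adjusted p = 0.00877) and CD93 at -0.85 (adjusted p = 0.0144). The call of CD9, a tetraspanin, was lost without rescue replicate 2 (adjusted p = 0.0558), and that of CD93, a lectin-like receptor, without rescue replicate 1, rescue replicate 2 or mutant rescue replicate 2 (adjusted p = 0.0601, 0.0794 and 0.0534). In rescue minus knockdown 0 of the 17 were called. At an unadjusted p under 0.05, 3 were higher and 4 were lower, the latter beside 8.16% of all tested genes. The share of all tested genes higher at that p is not given.

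**Figure D4:**
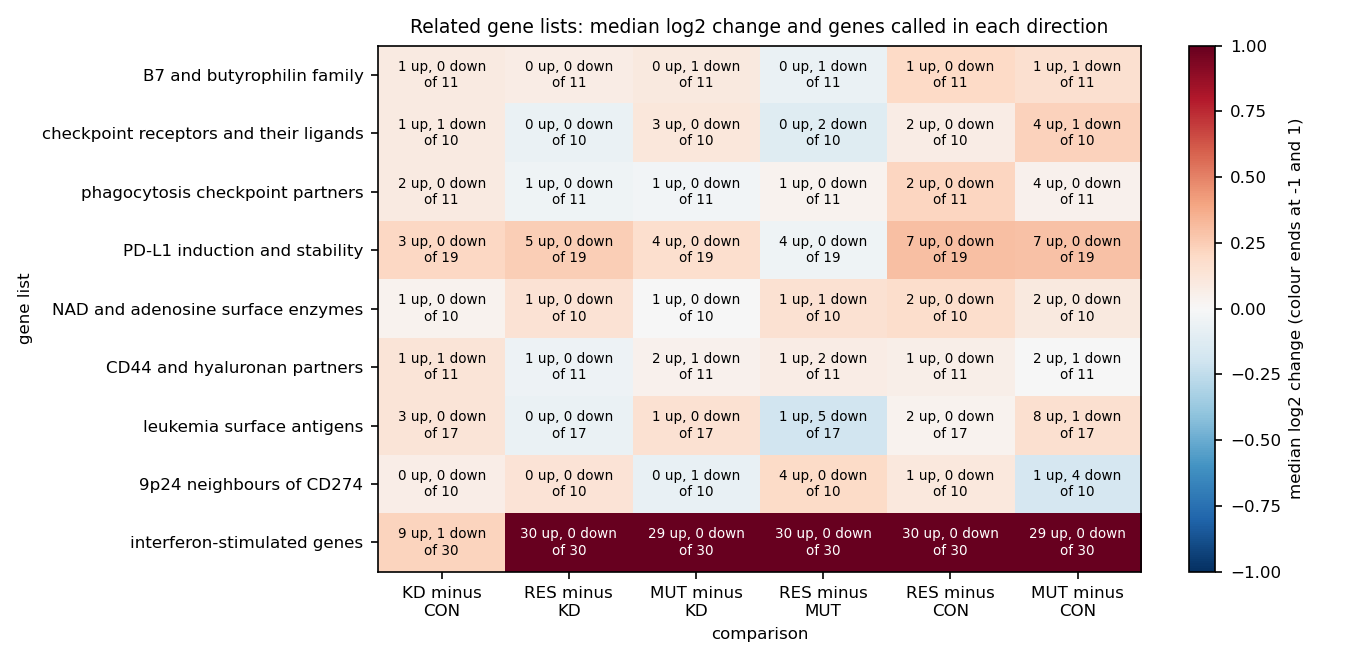
Median log2 change (colour, ends at -1 and 1) of 9 gene lists (rows) in 6 comparisons (columns, abbreviated as CON control, KD knockdown, RES rescue, MUT mutant rescue), with the number of tested genes called higher (up) and lower (down) in each cell. The colour of the interferon-stimulated genes is cut at 1 (their medians reach 4.70), and they have 29 or 30 of 30 genes called higher in the 5 comparisons that include a rescue group. Leukemia surface antigens have 8 of 17 called higher in mutant rescue minus control, beside 13.9% of all tested genes.

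The log2 changes that the authors deposited were compared with those from the library values for the 8 tested genes in 6 comparisons. All 48 pairs had the same sign, and in all 48 the change in the authors' deposited table was larger in size. The calls agreed for 19 that both made, while 3 were made by the authors alone (CD47 in knockdown and in rescue over control, and CLEC12A in rescue minus knockdown) and 1 here alone (CLEC12A in rescue minus mutant rescue). The gap was wide for HAVCR2, where the authors' deposited table gave 1.95 for rescue minus knockdown, and for CD86, where it gave 2.07 for knockdown minus control.

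**Figure D5:**
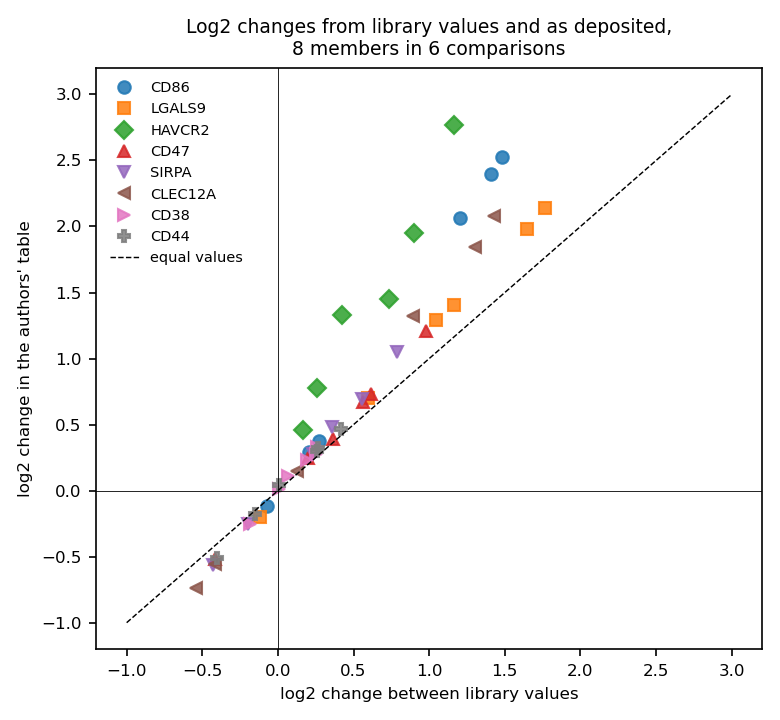
Log2 change of 8 genes in 6 comparisons, from the library values (x axis) and from the authors' deposited table (y axis), with a dashed line at equal values. All 48 points lie farther from 0 on the y axis than on the x axis, and HAVCR2 and CD86 lie farthest above the line.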

How the data were processed

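The 10 genes and the related lists were chosen with earlier results of these data known. Per the submitters' processing notes, the authors' tools included kallisto, Trim Galore and HOMER, in unstated roles and versions, and the build was GRCh38. Per the file headers, HOMER's getDiffExpression.pl wrote the table. Its library columns are log2 values, normalized by the authors over all 8 libraries, with low genes drawn together. For each pair of groups the authors deposited a log2 fold change, a p-value and an adjusted p-value, from a model that no source used here describes.

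Groups came from the sample titles. The planned tests foresaw counts, TPM or log2 values, and the values as deposited were fitted with limma 3.58.1 (R 4.3.3), with no pseudocount, as 4 group means over 8 libraries (4 residual degrees of freedom, empirical Bayes with mean trend). Genes were kept at 1 ppm of the linear total in at least 2 libraries, and p-values were adjusted by Benjamini-Hochberg over 13030 genes in each of 6 comparisons and called under 0.05. Adjusted p-values, folds and ranks in the text are from this fit unless the authors' table is named. The fit was tested on simulated data. Of 35370 rows, 1 without a symbol was left out, 26 had a number as symbol and 10937 were at 0 throughout.

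Named were IGF2BP2, all 10 genes, up to 3 called genes of smallest adjusted p per list and comparison (or the most abundant where none was called), and the 3 genes with the highest r to each tested gene among those averaging 5 ppm. From these, the text gives those next to each gene's role, and some are not reported here. Gene positions are from GENCODE v29 (GRCh38) and promoters from RefSeq. Alternatives were no filter, a 5 ppm filter, no trend, fits of the compared groups alone, a replicate block, centred libraries, and each library left out, 14 in all.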

Additional observations from a re-analysis of the deposited data

How the results depend on the processing

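Over 672 alternative values for the 8 genes, 607 kept direction and side of the threshold, 40 lost a call, 15 gained one and 10 changed sign. In fits of the compared groups alone, limma called 2620 genes for knockdown minus control (1667 with all groups), 1246 for rescue minus knockdown (553), 279 for mutant rescue minus knockdown (1473), 192 for rescue minus mutant rescue (1370) and 1793 for mutant rescue minus control (3241). Of the 8 genes, 1 was then called for mutant rescue minus knockdown, also without the mean trend, against 2, and 0 for rescue minus mutant rescue against 3, with 4 at an unadjusted p under 0.05. CD47 was added for knockdown minus control and for rescue minus control, which made 5 against 4 in both. Such fits have fewer residual degrees of freedom.

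Centring the libraries turned CD38 in rescue minus knockdown to -0.015 and CD44 in mutant rescue minus control to -0.051. It split the calls into 378 higher and 938 lower for mutant rescue minus knockdown (727 and 746 as deposited) and 1438 and 1891 for mutant rescue minus control (1810 and 1431). CD44 in knockdown minus control was also lost with no filter (adjusted p = 0.0690), without the trend (0.0539) and when centred (0.0606).

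With 1 library left out, genes called numbered 179 to 2359 for knockdown minus control, 176 to 864 for rescue minus knockdown, 79 to 2801 for mutant rescue minus knockdown, 241 to 2870 for rescue minus mutant rescue, 361 to 1422 for rescue minus control and 1440 to 3953 for mutant rescue minus control. Of the 8 genes, 2 to 5, 1 to 2, 1 to 3, 0 to 5, 4 to 5 and 5 to 6 were called, in that order. The lone library left in a group was assumed to vary like the others. Signs changed for LGALS9 in knockdown minus control (-0.27 to 0.037), CD44 (-0.13 to 0.15) and CD38 (-0.073 to 0.21) in mutant rescue minus control, CD38 in rescue minus knockdown (-0.092 to 0.10), HAVCR2 in mutant rescue minus knockdown (-0.044 to 0.37) and CD86 in rescue minus mutant rescue (-0.20 to 0.063), none of which was called. The causes were not tested.

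The labels do not say that a replicate number marks a shared culture or day, and correlations of same-numbered deviations were -0.02, 0.07, 0.19, 0.41, 0.02 and 0.19. Since 3 of these 6 were not over 0.1, the numbers were not taken as a pairing. With the replicate block 1787, 592, 1805, 1765, 1010 and 3541 genes were called, in the order of the preceding paragraph. In the same order 4, 2, 3, 4, 5 and 5 of the 8 were called. The block added CD44 in mutant rescue minus knockdown (adjusted p = 0.0426), SIRPA in rescue minus mutant rescue (0.0490) and CD47 in rescue minus control (0.0269), and changed no other call of the 8. Depth is unknown, so what it limits cannot be stated.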

Other observations

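CD274 and PDCD1LG2 lie in a run of genes on the short arm of chromosome 9, of which 10 neighbours passed the filter. JAK2, the kinase that carries the interferon gamma signal and ends 322 kb before CD274, was 0.76 higher in rescue than in control (adjusted p = 0.0103 by limma). That call was lost without control replicate 2 or rescue replicate 2 (adjusted p = 0.0645 and 0.0829). Between the rescue groups 4 neighbours were higher in rescue, among them INSL6 at 0.59 and MLANA at 0.35 (adjusted p = 0.00899 and 0.0135), both lost without rescue replicate 2 (adjusted p = 0.0704 and 0.0913). In mutant rescue minus control 4 were lower and 1 was higher, beside 11.0% and 13.9% of all tested genes. For the 4 that were higher in rescue than in mutant rescue, the share of all tested genes called higher was 5.9%. In knockdown minus control 0 of the 10 were called. At an unadjusted p under 0.05, 2 were higher and 3 were lower, the latter beside 16.0% of all tested genes. In rescue minus knockdown 0 were called, with 2 higher at that p. The share of all tested genes higher at that p is not given for either comparison.

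In mutant rescue replicate 2, CEBPA, a transcription factor of myeloid development, stood at 10.67, against 8.91 in mutant rescue replicate 1 and 8.06 to 8.45 in the 6 libraries of the other groups. This gene was singled out after its values were seen.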
